A study of Rattus norvegicus with 24 samples.

Results

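The comparison described here is the effect of injected heroin on the transcriptome of the rat nucleus accumbens (NAc), pooled over a history of lipopolysaccharide (LPS). Its members were chosen by treatment alone. They were the 8 libraries of rats given heroin, Saline-Heroin and LPS-Heroin with 4 libraries each, set against the 8 libraries of rats given saline in its place, Saline-Saline and LPS-Saline with 4 libraries each. These are 16 of the 24 libraries of the series. The other 8, Heroin-SA and Saline-SA, came from a separate experiment on self-administration (SA). All rats were adult male Sprague Dawley animals that arrived at 8 weeks of age. LPS, a bacterial cell wall component that provokes inflammation, was given intraperitoneally at 250 µg/kg in 5 injections over a period of weeks, with saline for the other history. Heroin then followed intraperitoneally on 5 days, rising from 1 to 5 mg/kg, and the heroin controls were injected with saline. All injected rats spent a short time in a locomotor chamber after the last injection and are taken here as killed about 1 h after it. The study's methods place death within 1 h of the end of the chamber session, so the interval from the injection may differ from 1 h. The labels give a week between LPS and heroin, and the study's methods give 4 days. Heroin-SA rats took 0.075 mg/kg per infusion in 10 daily sessions of 6 h and were killed right after the last one, as were Saline-SA rats. Each library held the NAc of 1 rat, core and shell together, so that fewer cells of a type and less RNA per cell cannot be told apart.

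Heroin is converted in the body to morphine and related opioids, which act mainly on the µ opioid receptor. That receptor couples to inhibitory G proteins, which lower cyclic AMP and open potassium channels. Most NAc neurons are medium spiny neurons that carry D1 or D2 dopamine receptors. Immediate early genes are transcribed within minutes of neuronal firing, through the transcription factors CREB and SRF, without new protein being made. Fos, Egr1 and Arc are the members most used as markers of recent activity, and their RNA decays within hours.

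RNA was read from polyadenylated transcripts. The 16 libraries held 12312878 to 18850240 reads on genes, with a median of 15092755 in the 8 heroin libraries and 14153915.5 in the 8 saline libraries. Mitochondrial genes took 8.22% ± 0.487 of the reads with heroin and 7.97% ± 0.625 without (SD, n = 8 each). Of the genes looked for in the labelled tissue, Drd1 ran from 41.1 to 88.5 FPKM over the 16 libraries and Penk, which encodes enkephalin, from 266 to 626 FPKM. Slc17a7, a marker of cortical glutamatergic neurons, ran from 73.8 to 374 FPKM in the same libraries. RNA of a neighbouring region's marker was thus also present, in amounts that varied between libraries. FPKM is the number of fragments on a gene scaled by its length and by library size. Genes were called by limma on log2(FPKM + 0.1), with LPS history as a covariate, where the unadjusted 2-sided p was at most 0.05 and the change at least 1.3-fold. Beside single genes stands the p of a 2-sided exact permutation test, in which the heroin labels were exchanged within each history in all 4900 ways, so that 0.000408 is the smallest it can give. Rose and fell are written below only of called genes. Counts of libraries that lay apart follow in part from picking genes by small p. Their share over all genes is known only where it is given.

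Of 15113 genes tested, 371 were called, 160 up and 211 down. These are 2.45% of the genes tested, 1.06% called up and 1.4% called down. None passed a Benjamini-Hochberg adjusted p of 0.05 in limma, where the smallest was 0.392, and 1231 genes had an unadjusted p under 0.05 where 756 would be expected by chance. The calls below therefore rest on unadjusted p-values. The median absolute log2 fold change of the 371 was 0.6, and 80 of them changed at least 2-fold. Of the calls, 177 had a mean under 50 reads per library and 43 were small RNA genes, so only 172 were well enough read and named to be described singly, 63 up and 109 down.

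The 2 LPS histories share no library and so give 2 separate readings of heroin. In rats with a saline history 468 genes were called, 3.1% of those tested, and in rats with an LPS history 344, or 2.28%. Unadjusted p-values under 0.05 in limma numbered 997 after saline and 694 after LPS, where 756 would be expected by chance in each. The LPS history thus gave no more than chance would. The smallest adjusted p-values in limma were 0.232 and 0.58. Across genes, the log2 fold changes of the 2 histories had a Pearson correlation of 0.072. The estimates had the same sign in 54.4% of all 15113 genes. Of the genes called with a saline history 67.7% kept their sign in the other, and of those called with an LPS history 63.7%. In both histories 40 genes were called, 30 of them in the same direction, 0.199% of those tested, and 10 in opposite directions. The LPS by heroin interaction called 349 genes, or 2.31%, with none at an adjusted p under 0.05 in limma. There 607 genes had an unadjusted p under 0.05, beside 756 expected by chance. Of the 30 genes called in the same direction in both, 9 were immediate early genes, which are described first.

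Of the 30 immediate early genes listed, 28 were tested. Fosl1 was below the limit of a mean of 0.5 FPKM, and Ier2 was not matched by symbol. With heroin 11 of the 28 fell and none rose, where 1.4% of all genes tested fell. The 11 were Fos, Fosb, Fosl2 and Junb of the AP-1 family, Egr1, Egr2 and Egr4 of the zinc finger family, the orphan nuclear receptors Nr4a1 and Nr4a3, Arc, and Dusp5. The median log2 fold change of the list was -0.26, against 0 over all genes, and 20 of 28 members lay below 0. The members were listed with earlier results of these data known.

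Fos encodes a subunit of the AP-1 transcription factor (rn6, chr6:109300433-109303299, plus strand). Its level in Saline-Saline was 24.3, 28.6, 25.3 and 39.8 FPKM, and in LPS-Saline 39.9, 34.6, 30.7 and 53.5 FPKM. In Saline-Heroin it was 17.7, 10.5, 15.5 and 16.9 FPKM, and in LPS-Heroin 40.3, 17.4, 13.3 and 16.8 FPKM. Thus 7 of the 8 heroin libraries lay below every saline library, the exception being LPS-Heroin replicate 1. The log2 fold change was -0.96 (SE 0.20, exact p = 0.00163, limma adjusted p = 0.411), a fall of 48.5%. It was -0.96 in either history.

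Egr2, a zinc finger transcription factor (rn6, chr20:22454463-22459025, minus strand), showed the largest fall of the list. Its Saline-Saline levels were 4.48, 6.51, 14.5 and 7.48 FPKM, its LPS-Saline levels 10.5, 9.27, 14.3 and 10.4 FPKM. With heroin the values were 3.99, 1.12, 2.47 and 2.62 FPKM after saline and 11.7, 4.01, 2.04 and 3.71 FPKM after LPS. Again only LPS-Heroin replicate 1 reached the range of the saline libraries. The log2 fold change was -1.48 (SE 0.32, exact p = 0.00245). Arc, which encodes a synaptic protein that trims AMPA receptors from the surface, had a median of 25.8 FPKM with heroin (7.48 to 76.5) and 55.1 FPKM without (27.5 to 77.2). Here 6 of 8 heroin libraries were below all saline libraries, and the log2 fold change was -1.24 (SE 0.34, exact p = 0.00571). Nr4a1, a nuclear receptor without a known hormone, ran from 14.2 to 60.3 FPKM with heroin (median 24.7) and from 26.6 to 63.1 FPKM without (median 50.4). Its log2 fold change was -0.92 (SE 0.21, exact p = 0.0049), at -0.91 and -0.92 in the 2 histories.

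Dusp5, a phosphatase that switches off nuclear ERK, was read at a lower level, with a mean of 64.6 reads (rn6, chr1:274245184-274258595, plus strand). Saline-Saline held 2.23, 1.94, 2.18 and 2.28 FPKM and LPS-Saline 1.96, 2.94, 2.62 and 1.77 FPKM. Saline-Heroin held 1.27, 1.42, 1.09 and 1.08 FPKM and LPS-Heroin 1.74, 1.08, 1.64 and 1.60 FPKM. All 8 heroin libraries lay below all 8 saline libraries, LPS-Heroin replicate 1 included. The log2 fold change was -0.68 (SE 0.13, exact p = 0.000408, limma adjusted p = 0.392). Of all genes, 8 had groups of 4 that stood apart in the same direction in both histories, 0.0529% of those tested, and Dusp5 and Acot4 were the 2 whose 8 and 8 libraries also stood apart. The other 6, seen after their values were known, were LOC100909521, Slco1c1, Icam5, Dlg3, Cyth4 and Ptpra.

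The remaining members fell by smaller amounts. Junb had a median of 48.9 FPKM with heroin and 83.8 FPKM without, at a log2 fold change of -0.63. The corresponding fold changes were -0.64 for Nr4a3, -0.60 for Fosl2, -0.60 for Fosb, -0.59 for Egr1 and -0.57 for Egr4, and the exact p-values of the 6 ran from 0.00408 to 0.0127. In each of these 6 genes 7 of the 8 heroin libraries lay below the median of the saline libraries, and LPS-Heroin replicate 1 lay above it.

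**Figure D1:**
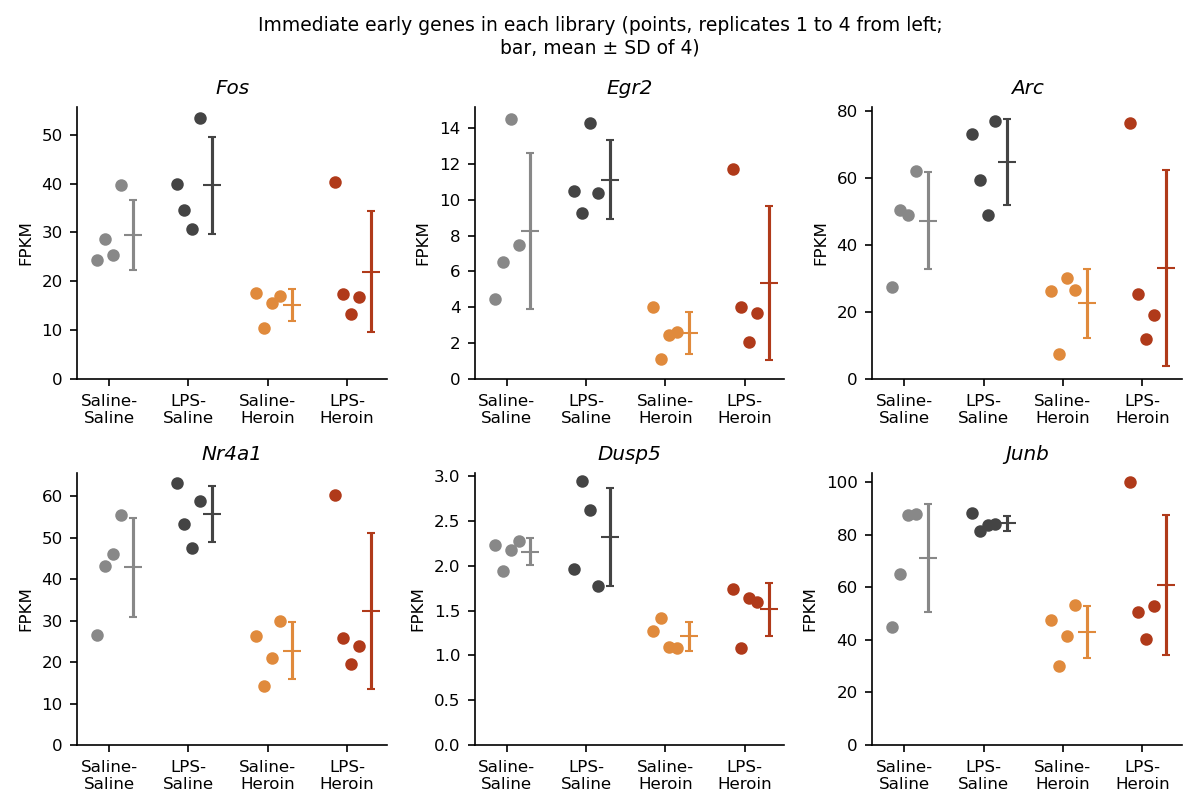
FPKM (vertical axes, from 0) of 6 immediate early genes in each library of the 4 injected groups, as points, with the group mean ± SD (n = 4) beside them. Heroin libraries sit low in every panel save LPS-Heroin replicate 1, which reaches 40.3 FPKM for Fos and 99.9 FPKM for Junb, whereas for Dusp5 its 1.74 FPKM is still under all 8 saline libraries.

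Members that were not called include other activity markers. Sik1, a kinase induced by cyclic AMP, was lower in all 8 heroin libraries than the saline median, at -0.37 (exact p = 0.00612), just under the fold limit. Npas4, a transcription factor that responds to calcium entry, was at -0.64 with an exact p of 0.135 and ran from 1.88 to 18.7 FPKM with heroin. Egr3 stood at -0.18, Nr4a2 at -0.17, Homer1 at 0.02, Bdnf at 0.01, Jun at 0.13 and Klf2 at 0.34. The list thus held a group of genes well below 0 and a group near or above 0.

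**Figure D2:**
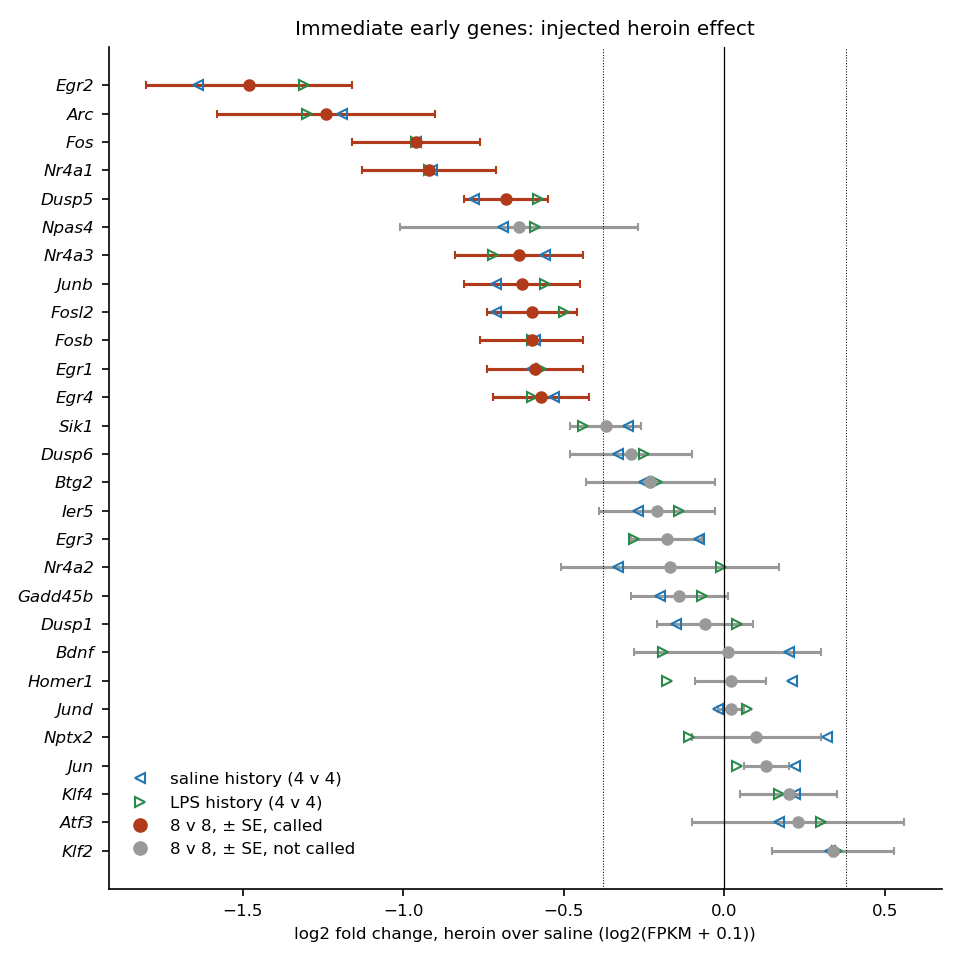
Log2 fold change with heroin (horizontal axis) of the 28 immediate early genes tested, with SE, for all 16 libraries (filled) and for each LPS history (triangles). Dotted lines mark the 1.3-fold limit. The 11 called genes lie from -1.48 to -0.57, with both histories on the same side of 0 for each. The same held for 369 of all 371 called genes (99.5%), since a call in the pooled fit all but fixes it.

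In rats with a saline history 10 of the 28 fell, beside 1.69% of all genes, with a list median of -0.31. In rats with an LPS history 11 fell, beside 1.15%, with a median of -0.27. Called in both were 9 genes, 32.1% of the list, namely Fos, Fosb, Junb, Egr1, Egr2, Egr4, Arc, Nr4a1 and Dusp5. Below 0 in both histories were 19 of 28.

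LPS-Heroin replicate 1 was high in immediate early genes beside the other LPS-Heroin rats. Leaving it out is a choice that rests on these same genes, so the values without it are larger by construction and no support for the fall. Without it 14 of the 28 fell, adding Npas4 at -0.87, Dusp6 at -0.39 and Sik1 at -0.38, with a list median of -0.35 and 1.48% of all genes called down. Fosl2, Fos, Egr2 and Nr4a1 then had adjusted p-values of 0.017, 0.017, 0.0465 and 0.0465 in limma, and no other gene passed 0.05, where with all 16 libraries none passed. The fold changes there were -0.73, -1.11, -1.71 and -1.08. Saline-Saline replicate 1 had high choroid plexus markers and was also the lowest saline library in immediate early genes, with a mean log2 level of 3.60 beside 3.91 to 4.41 in the others. Without it 13 fell, beside 1.23% of all genes, and the median was -0.31.

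Promoters are shown for 3 of the members whose levels moved together, because CREB and SRF bind known short motifs. Of 8 motifs looked for on both strands, the ones marked below are the core of the cyclic AMP response element, TGACG, which the full element TGACGTCA contains, and the CArG box, at which SRF binds. Both of these were chosen with the results known. RefSeq windows on GRCr8, 250 bases before and 50 after the start, were matched for 8 of the 11 called members, with none for Fos, Arc and Nr4a3. The core was in 6 of those 8 (75%), in 13 of the 21 tested members with a window (61.9%), and in 21.2% of all 33469 windows. A CArG box was in 3 of the 8 (37.5%), in 3 of the 21 (14.3%) and in 1.64% of all windows. Fosb and Fosl2 held neither of these 2 motifs. The 3 promoters printed all hold at least 1 of them and so do not stand for the 11. The full element was in none of the 8, in 3 of the 21 and in 1.83% of all windows. The hypoxia element NACGTG was in 3 of the 8 (37.5%), in 7 of the 21 (33.3%) and in 19.2% of all windows. The E-box CACGTG, which it overlaps, was in none of the 8 and 2 of the 21 (9.52%), beside 6.42% of all windows. The AP-1 motif TGANTCA, the glucocorticoid element and the heat shock element were in none of the 21, beside 7.33%, 0.439% and 0.798% of all windows. Among the 12 up and 12 down genes with the smallest p, 6 and 8 had windows, and the core was in 2 and 4 of them, the full element in 1 and 0, the hypoxia element in 0 and 3, the AP-1 motif in 1 and 1, the glucocorticoid element in 0 and 1 and the CArG box in 0 and 2. The E-box and the heat shock element were in none of these. Below, 150 bases before the start are printed 5′ to 3′ on the strand of the gene, with both motifs in capitals.
Egr2 (chr20:21054442-21054591, minus strand): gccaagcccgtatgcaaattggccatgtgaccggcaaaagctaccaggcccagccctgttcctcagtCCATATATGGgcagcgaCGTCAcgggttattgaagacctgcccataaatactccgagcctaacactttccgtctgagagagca
Dusp5 (chr1:262543624-262543773, plus strand): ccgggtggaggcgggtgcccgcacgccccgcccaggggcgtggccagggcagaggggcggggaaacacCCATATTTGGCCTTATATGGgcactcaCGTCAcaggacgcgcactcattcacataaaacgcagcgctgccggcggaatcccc
Nr4a1 (chr7:134259988-134260137, plus strand): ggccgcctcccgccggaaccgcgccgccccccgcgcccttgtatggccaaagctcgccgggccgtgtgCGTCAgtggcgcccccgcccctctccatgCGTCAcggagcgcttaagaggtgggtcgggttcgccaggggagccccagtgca
Egr2 and Dusp5 hold CArG boxes beside a core element, and Nr4a1 holds core elements and no CArG box. A match is a string of letters and not a shown binding site.

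Mir132, the locus of a microRNA whose primary transcript is induced by CREB, lay outside the naming rule and was picked after its values were seen. Its 101-base row held 28 to 112 reads per library, with a median of 31.3 FPKM with heroin (17.3 to 74.2) and 59.7 FPKM without (33.2 to 65.5). It was called down in both histories, at -0.78 and -0.86, and the highest heroin library was again LPS-Heroin replicate 1. Reads of polyadenylated RNA at the locus come from its primary transcript and do not measure the mature strands. RefSeq gives those as follows, with the seed, bases 2 to 8, in capitals.
rno-miR-132-5p: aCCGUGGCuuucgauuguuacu
rno-miR-132-3p: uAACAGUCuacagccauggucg

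The self-administration experiment shares no library with the injected rats and gives another reading of the same genes. Fos was at 14.6, 14.8, 9.54 and 11.8 FPKM in Saline-SA and 9.36, 11.3, 8.48 and 4.48 FPKM in Heroin-SA. The Heroin-SA values were lower with overlap, at a log2 fold change of -0.64 (exact permutation over 70 exchanges, p = 0.0571, where 0.0286 is the smallest possible). Of the 27 immediate early genes tested there, 9 fell, beside 2.41% of all genes, and Homer1 alone rose, beside 3.04%. The list median was -0.16. Egr2 fell by 1.26 on the log2 scale, also with overlap (exact p = 0.0571). Dusp5 fell by 0.63, Nr4a1 by 0.61 and Arc by 0.55 (exact p = 0.0286 each). Fosl2 and Nr4a3, which fell with injected heroin, both stood at -0.03. The difference between the experiments in the heroin effect was tested for each gene in 1 limma fit of 24 libraries. None of the genes named here passed an adjusted p of 0.05, the smallest being 0.0928 for Hyou1. The experiments also differed in light cycle, housing, catheter surgery and days of heroin, so route cannot be told apart from these. Mitochondrial genes took 10.0 to 15.9% of the reads in self-administration libraries and 6.82 to 9.1% in injected ones.

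Outside the immediate early genes, a peptide and an immune gene fell in both histories. Nts encodes neurotensin, a peptide that modulates dopamine signalling. It stood at 20.5, 25.4, 36.8 and 24.1 FPKM in Saline-Saline and 26.5, 17.9, 47.3 and 32.6 FPKM in LPS-Saline. With heroin it was at 14.6, 24.5, 12.4 and 19.2 FPKM after saline and 12.8, 14.1, 14.1 and 16.5 FPKM after LPS. All 4 LPS-Heroin values lay below all saline values, while the Saline-Heroin values overlapped them, and the pooled log2 fold change was -0.82 (SE 0.19, exact p = 0.00163). In self-administration Nts was at 0.28, and the difference between the experiments had a limma adjusted p of 0.228. RT1-T24-4, a class I gene of the major histocompatibility complex, had a median of 1.72 FPKM with heroin (0.941 to 2.21) and 4.35 FPKM without (1.81 to 6.86). Its log2 fold change was -1.26 (SE 0.27, exact p = 0.00163). It overlaps another gene on the opposite strand and belongs to a family of near copies, so its reads are uncertain.

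Signalling and vascular genes also fell. Irs2, which couples the insulin receptor to its kinases, went from a median of 20.6 FPKM to 15.7 FPKM, with 7 of 8 heroin libraries below all saline libraries, at -0.42 (exact p = 0.00122). Without LPS-Saline replicate 3 or LPS-Heroin replicate 3 it was at -0.36 or -0.37, just under the fold limit. Trib1, a pseudokinase that marks proteins for degradation, was at -0.57, Steap2, a metalloreductase, at -0.72 and Fam89a at -0.46. Sox18, an endothelial transcription factor, was at -0.55 and Ocln, a tight junction protein, at -0.56, or at -0.36 and under the fold limit with a pseudocount of 1. The exact p-values of these 5 genes ran from 0.000816 to 0.0135. The other 17 of 18 endothelial markers tested were not called, and their list median was -0.07.

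Genes that rose were fewer. Acot4, which hydrolyses acyl-CoA in peroxisomes, ran from 2.21 to 2.69 FPKM in the heroin libraries (median 2.38) and from 1.43 to 2 FPKM in the saline libraries (median 1.77). No heroin library overlapped a saline library, and the log2 fold change was 0.43 (SE 0.09, exact p = 0.000408). With a pseudocount of 1 it was at 0.30, under the fold limit. In self-administration it was at 0.07. Igfbp3, which binds insulin-like growth factors, had a median of 2.02 FPKM with heroin and 1.28 FPKM without, with 7 of 8 heroin libraries above all saline libraries (0.63, exact p = 0.00204).

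Plat, the tissue plasminogen activator, went from a median of 13.5 FPKM to 23.9 FPKM, with 6 of 8 heroin libraries above all saline libraries (0.65, SE 0.17, exact p = 0.00776). Crym, which binds thyroid hormone in the cytosol, went from 132 to 181 FPKM (0.45, exact p = 0.00449), and stood just under the fold limit, at 0.37, without Saline-Saline replicate 1. Gpr26, an orphan receptor, was at 0.41 (exact p = 0.00612) and rose in self-administration too, at 0.79. Without LPS-Saline replicate 3 it was at 0.35, under the fold limit. Npy1r, the Y1 receptor of neuropeptide Y, was at 0.38 and Zswim7 at 0.38, with exact p-values of 0.00653 and 0.0114. Each fell under the fold limit in 6 of the 16 fits without 1 library, where the estimates ran from 0.32 to 0.45 and from 0.31 to 0.45.

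Clip3, a microtubule-binding protein, had the largest fold change of the genes named, 2.28 (SE 0.67, exact p = 0.0131). The estimate was 1.46 after saline and 3.09 after LPS, and the gene was not called in both histories. Its saline libraries differed by history, with 0.575 to 1.27 FPKM in LPS-Saline and 1.67 to 10.3 FPKM in Saline-Saline. The level of Clip3 spread widely, from 0.803 to 43.1 FPKM with heroin and from 0.575 to 10.3 FPKM without, and 5 of 8 heroin libraries lay above all saline libraries. Fn1, the matrix protein fibronectin, was at 0.76 and overlaps a gene on the opposite strand. Kcnh3, Slc2a3 and Rcor2 were at 0.45, 1.05 and 0.89, and each overlaps another gene on the same strand, so that their reads are uncertain. The exact p-values of Fn1 and these 3 ran from 0.00163 to 0.0122.

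**Figure D3:**
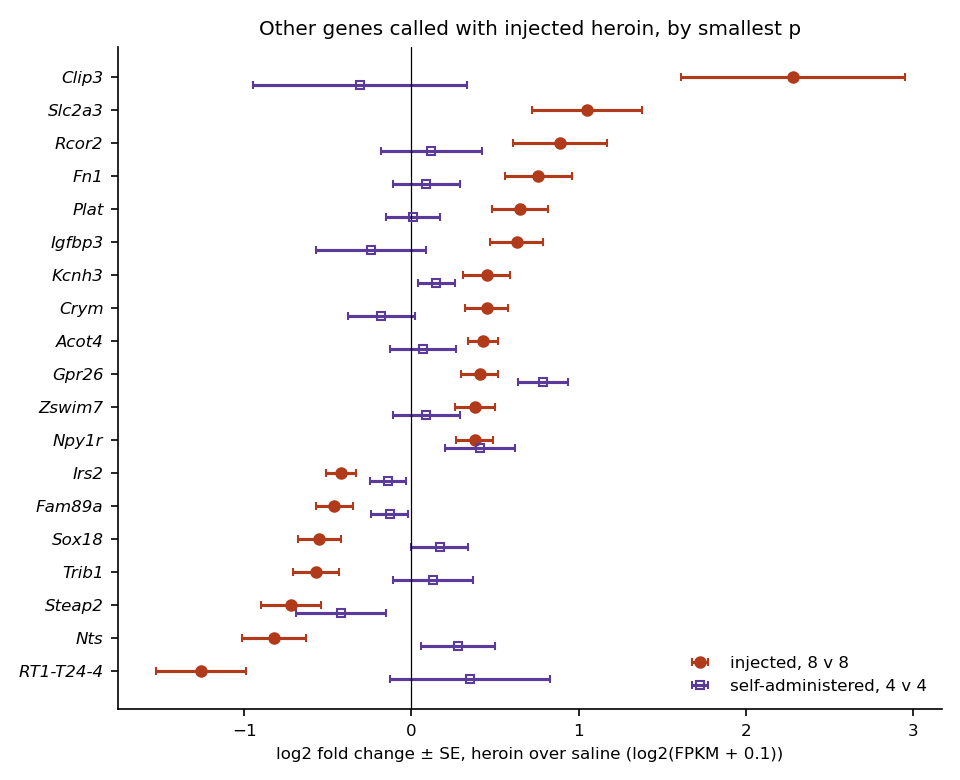
Log2 fold change with SE (horizontal axis) of the 19 genes outside the immediate early gene list that had the smallest p among the named calls, for injected heroin (circles, 8 against 8) and for self-administered heroin (squares, 4 against 4). Gpr26 and Npy1r are higher with both routes, at 0.41 and 0.79 and at 0.38 and 0.41, while Nts, RT1-T24-4, Sox18, Trib1, Igfbp3, Crym and Clip3 differ in sign. Slc2a3 was not tested in self-administration.

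No gene of the opioid system was called, where 2.45% of all genes tested were. All 8 opioid peptide and receptor genes were tested. Oprm1, the µ receptor, had a mean of 63.8 reads per library and medians of 0.704 FPKM with heroin and 0.766 FPKM without, and stood at -0.22 (SE 0.22). It overlaps genes on both strands. Penk was at -0.10, Pdyn, the dynorphin precursor, at -0.12, Pnoc, the nociceptin precursor, at -0.36 and Pomc at -0.26. Oprd1 was at 0.28, Oprk1 at 0.06 and Oprl1 at -0.11. Of 18 genes of medium spiny neurons and dopamine receptors none was called, with Drd1 at -0.01 (SE 0.15) and Drd2 at 0.01 (SE 0.14).

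Downstream of the receptor, 2 of 35 genes of cyclic AMP and G protein signalling rose, with a list median of 0. Over all genes tested 1.06% rose and 1.4% fell. The few calls in each list of this paragraph describe single genes, and no list was tested as a set. Adcy1, a calcium-stimulated adenylyl cyclase, was at 0.47 (exact p = 0.0433) and rose also in self-administration, at 1.05 (exact p = 0.0571). Kcnj3, a subunit of the potassium channel opened by inhibitory G proteins, was at 0.54, with an exact p of 0.0608 that is above 0.05. The calls were lost in 4 and 8 of the 16 fits without 1 library. Of 23 glutamate receptor genes Grin2d fell, at -0.54 (exact p = 0.0257). Of 7 genes of monoamine synthesis and transport Ddc, the decarboxylase that makes dopamine and serotonin, fell, at -0.50 (exact p = 0.00898), and none of the 10 serotonin receptors was called. Among interneuron peptides and markers 3 of 14 fell. These were Nts, Crh at -0.94 (exact p = 0.0241) and Lhx6 at -0.59 (exact p = 0.0514), the last of which lost its call in 6 of the 16 fits.

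Stress and immune lists held few calls, where 1.06% of all genes tested rose and 1.4% fell. No gene of 18 heat shock chaperones, 17 genes of the integrated and endoplasmic reticulum stress response, 18 clock genes, 3 cold-inducible genes, 18 interferon-stimulated genes, 11 inflammation genes, 16 microglial genes, 14 astrocytic genes, 8 ependymal genes or 11 mitochondrial genes was called. In self-administration 5 of the 18 heat shock genes rose, beside 3.04% of all genes, and 2 of the 3 cold-inducible genes fell, beside 2.41%. The glucocorticoid list had 1 of 23 called, Map3k6 at 0.80 (exact p = 0.00571, 0.36 and not called with a pseudocount of 1), with Fkbp5 at 0.12 and a median of 0.12. Of its members 20 lay above 0 and 3 below, where 7495 of all genes lay above and 7618 below. Mt2A at 0.37 and Nfkbia at 0.32 were under the fold limit (exact p = 0.00694 and 0.0351). Of the microglial genes 2 lay above 0 and 14 below (median -0.07), and all 11 mitochondrial genes lay above (median 0.06). The hypoxia list had 1 of 22 called, Slc2a3. Per1, a clock gene also induced by activity, was at -0.23 (exact p = 0.0106), under the fold limit.

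**Figure D4:**
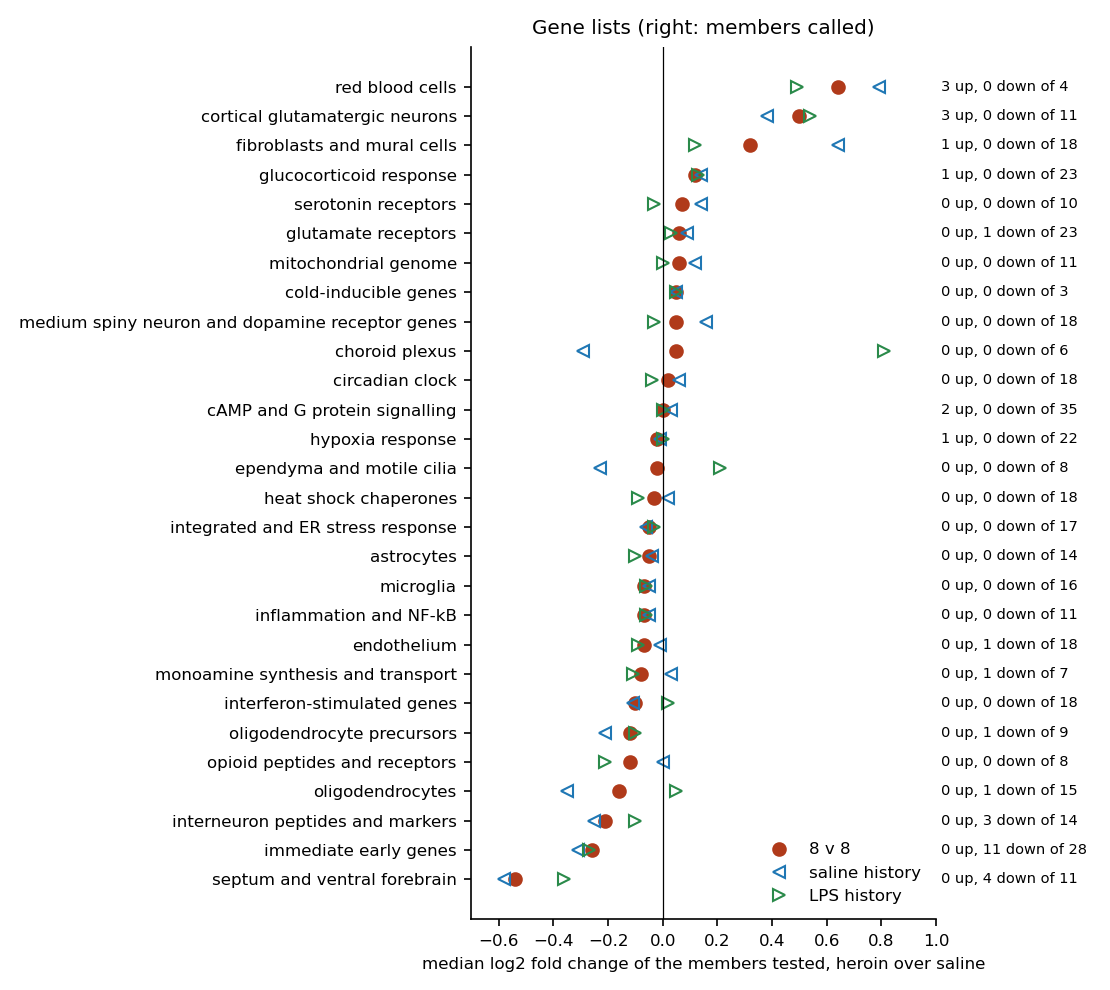
Median log2 fold change (horizontal axis) of the tested members of each of 28 gene lists, for all 16 libraries (circles) and each LPS history (triangles), with the numbers called at right. Immediate early genes hold the most calls, 11 of 28 down, and of the circles those of red blood cells, cortical neurons and the septum lie farthest from 0. Choroid plexus is at -0.29 after saline and 0.81 after LPS.

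Markers of neighbouring regions and of other cells moved with heroin as well, where 1.06% of all genes tested rose and 1.4% fell. Of 11 markers of cortical glutamatergic neurons 3 rose, Slc17a7 at 0.67, Tbr1 at 0.58 and Emx1 at 0.77, with a list median of 0.50. Their exact p-values were 0.0653, 0.0571 and 0.0522, all above 0.05, so these calls rest on limma alone. Their summed level ran from 244 to 582 FPKM with heroin (median 517) and from 183 to 499 FPKM without (median 379). Slc17a7 and Tbr1 each lost their calls in 9 of the 16 fits without 1 library, and Emx1 in 6. Of 11 markers of the septum and ventral forebrain 4 fell, Slc17a6 at -0.74, Gbx1 at -1.39, Dlk1 at -0.59 and Lhx8 at -1.09, with a median of -0.54 and exact p-values from 0.0237 to 0.0437. That sum ran from 31.4 to 140 FPKM with heroin (median 62.9) and from 54.9 to 178 FPKM without (median 94.2). The cortical sums of all 4 LPS-Heroin libraries, from 511 to 551 FPKM, lay above every saline library, and those of Saline-Heroin overlapped them. The septal sums overlapped in both histories.

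Of 4 red blood cell genes tested 3 rose, Hba1 at 0.66, Hbb at 0.63 and Hbb-b1 at 0.70 (exact p = 0.0388, 0.0449 and 0.0318), and their list summed to 354 to 1310 FPKM with heroin and 267 to 929 FPKM without. Haemoglobin genes are near copies of each other. Hbb lost its call in 4 of the 16 fits without 1 library, and Hba1 and Hbb-b1 in none. All 3 lost their calls in a fit of all 24 libraries. Over all genes tested 1.06% rose and 1.4% fell. Of 18 fibroblast and mural cell markers only Fn1 rose, while 16 lay above 0, with a median of 0.32, or 0.64 after saline and 0.12 after LPS. Choroid plexus markers summed to 1.5 to 32.7 FPKM with heroin and 0.747 to 332 FPKM without, the highest in Saline-Saline replicate 1, and none of 6 was called. Of 15 oligodendrocyte markers Gjc3 fell, at -0.49 (exact p = 0.0318), and all 15 lay below 0, with a median of -0.16, or -0.35 after saline and 0.05 after LPS. Of 9 precursor markers Sox10 fell, at -0.39 (exact p = 0.0253), a call lost in 8 of the 16 fits. The part of these cells in the single-gene results was not tested. Cortical and septal levels were fitted as covariates, but the medians of these levels themselves differed between heroin and saline libraries. That fit therefore cannot part tissue content from heroin. With both levels as covariates, 17 immediate early genes fell, beside 0.986% of all genes, and the list median was -0.53. Fos was then at -1.19 (SE 0.22), Arc at -1.80 and Egr2 at -1.74. Over all genes tested, the share called down was 0.986% in that fit and 1.4% without the covariates. Lost calls were looked up only for the genes named here. Among these, outside the cortical and septal lists, 11 calls were lost. Irs2 at -0.32, Gpr26 at 0.34, Crym at 0.35 and Npy1r at 0.37 missed only the 1.3-fold limit. Missing the limit on p were Kcnh3 at 0.21, Ddc at -0.39, Grin2d at -0.14, Crh at -0.45, Lhx6 at -0.17, Adcy1 at 0.16 and Kcnj3 at 0.29. The call of Nts was kept, at -0.57. The fit was added after the data were seen.

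**Figure D5:**
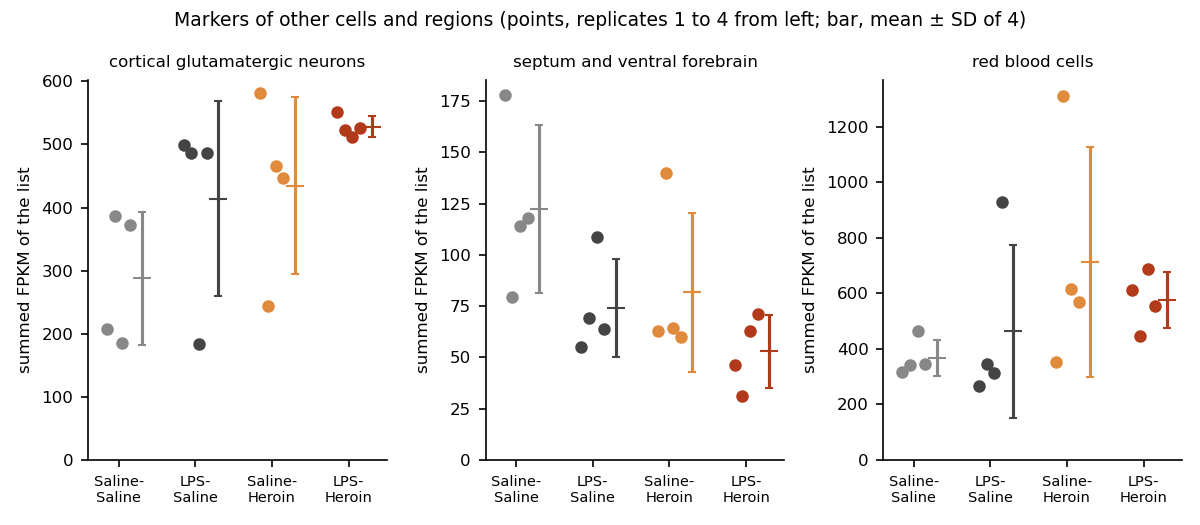
Summed FPKM (vertical axes, from 0) of the marker lists of cortical glutamatergic neurons, of the septum and ventral forebrain and of red blood cells in each library, as points, with the group mean ± SD (n = 4). Cortical sums are high in all 4 LPS-Heroin libraries, from 511 to 551 FPKM, all above the highest saline library at 499 FPKM, whereas Saline-Heroin overlaps the saline libraries there and both heroin groups overlap them in the other 2 panels.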

How the data were processed

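NAc RNA of 24 libraries, 6 groups of 4, was measured by RNA-seq, and the 16 injected libraries are described here. Groups came from the labels, which give 4 biological replicates a group where the study's methods give 6 sequenced. Directional libraries were made from 300 ng of total RNA after poly-A selection. Per the labels and the methods, reads were trimmed with fastp, aligned to rn6 with HISAT2 and counted on genes with featureCounts, and the authors deposited FPKM for 32545 genes. Versions and the strand setting of the counting are not given in the sources used here, so overlapping genes are uncertain. The authors tested with DESeq2, and the 1.3-fold and p limits used here are those of their pattern analyses.

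FPKM times gene length gave whole reads for 100% of the values (tolerance 0.01), giving 12312878 to 18850240 reads per library, so low genes carry large counting error. Heroin effects were fitted in limma 3.58.1 under R 4.3.3 (limma-trend, log2(FPKM + 0.1), genes with a mean of at least 0.5 FPKM), with LPS as a covariate in the 16 libraries and none within a history or in SA. For genes described singly, an exact permutation test of the same log2 values is given. A list is described by its counts and its median beside those of all genes. Genes named were the 12 up and 12 down with the smallest p among called protein-coding genes with a proper symbol and at least 50 reads, up to 5 called members of each list (2 where fewer were called), all immediate early genes, all opioid genes, Fkbp5, Drd1 and Drd2. The members and lists were chosen with earlier results of these data known. The fit was tested on simulated data. No pair of libraries was a duplicate, the highest correlation between 2 being 0.9628. Alternatives were other pseudocounts, filters, normalizations, covariates, limits, weights, voom on the recovered reads, a replicate block and leaving out each library.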

Additional observations from a re-analysis of the deposited data

Results flagged for a closer look

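Every called named gene was examined for 1 library far from the other 3 of its group, in 200 groups of 4, and 18 were found past Dixon's 95% limit. Chance alone marks about 1 group in 20. Values are FPKM, with the range of the other 3 libraries in brackets.

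LPS-Heroin replicate 1 was high for Fos at 40.3 (13.3 to 17.4) and for Nr4a1 at 60.3 (19.6 to 25.7). Saline-Heroin replicate 2 was low for Egr1 at 34.9 (60.7 to 62.1), for Arc at 7.48 (26.3 to 30.1) and for Tbr1 at 9.64 (21 to 22.6). Saline-Heroin replicate 3 was low for RT1-T24-4 at 1.05 (1.69 to 1.76), and Saline-Heroin replicate 4 was high for Slc2a3 at 3.58 (0.635 to 0.842). LPS-Heroin replicate 4 was low for Fam89a at 4.10 (6.28 to 6.56) and high for Crym at 253 (177 to 182).

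Among the saline libraries, LPS-Saline replicate 4 was high for Fn1 at 7.31 (3.20 to 3.74), for Rcor2 at 2.41 (0.927 to 1.11), for Hba1 at 631 (185 to 233) and for Hbb at 293 (81.3 to 110). LPS-Saline replicate 3 was high for Dlk1 at 33.5 (14.6 to 17.6) and low for Slc17a7 at 91.2 (301 to 318). Saline-Saline replicate 1 was high for Slc17a6 at 16.5 (4.78 to 5.69), replicate 4 for Gbx1 at 4.39 (1.97 to 2.27) and replicate 3 for Lhx6 at 14.1 (9.80 to 10.4).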

How the results depend on the processing

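With no filter on mean FPKM the heroin effect called 652 genes (277 up, 375 down), with no fold limit 1231 (621 up, 610 down) and at p of at most 0.01 112 (38 up, 74 down), and a pseudocount of 1 called 130 down. Without the filter the saline history had 8 genes at an adjusted p under 0.05, the LPS history called 526 (263 up, 263 down), and the interaction 565 (307 up, 258 down), with 2 at an adjusted p under 0.05. Self-administration had 1 such gene at a pseudocount of 1.

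Leaving out 1 library moved the main count from 313 to 489 (141 to 253 up, the latter without LPS-Saline replicate 4, and 172 to 271 down). The genes at an adjusted p under 0.05 numbered 0 to 4, the latter without LPS-Heroin replicate 1, and 11 without that library and Saline-Saline replicate 1 together, a choice made after seeing the data. The saline history ran from 372 to 731 calls (163 to 334 up, 194 to 397 down, 0 to 3 adjusted), highest without Saline-Heroin replicate 2, and gave 329 up without Saline-Saline replicate 4. The LPS history had 0 to 1 gene at an adjusted p under 0.05, the interaction 129 to 244 called down and 0 to 1 adjusted, and self-administration 333 to 823 called up and 0 to 1 adjusted. The single adjusted gene appeared without LPS-Saline replicate 1 or LPS-Heroin replicate 2 in the LPS history, without LPS-Heroin replicate 3 in the interaction and without Heroin-SA replicate 1 or 4 in self-administration. The 244 came without LPS-Heroin replicate 2, the 333 without Heroin-SA replicate 2 and the 823 without Heroin-SA replicate 3. The causes were not tested.

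Replicate numbers did not pair the samples: the mean correlation of deviations was 0.002 for 24 pairs with the same number (-0.143 to 0.163) and -0.001 for others, and 4 of 16 libraries correlated best with their own number. With a replicate block 386 genes were called in place of 371, and 438, 417, 346 and 758 for the saline history, the LPS history, the interaction and self-administration.

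Changes of sign were looked up for the named genes only, and the named genes that changed sign were all uncalled. With cortical and septal levels as covariates Bdnf was at -0.50, Homer1 at -0.11, Drd2 at -0.01, Nptx2 at -0.23, Isl1 at 0.12, Cirbp at 0.01 and Dnah9 at 0.01. Without Saline-Saline replicate 1 and LPS-Heroin replicate 1 together Bdnf was at -0.13, Homer1 at -0.05 and Nptx2 at 0. Bdnf was at -0.01 with a pseudocount of 1 and -0.03 with voom, Drd1 at 0.03 with array weights and Mt-nd2 at 0 after quantile normalization. Leaving out 1 library gave ranges of -0.16 to 0.12 for Bdnf, -0.09 to 0.08 for Drd1, -0.06 to 0.10 for Drd2, -0.03 to 0.07 for Homer1, -0.01 to 0.20 for Nptx2, -0.13 to 0.03 for Dusp1, -0.36 to 0.02 for Nr4a2 and -0.02 to 0.14 for Oprk1. A pseudocount of 1 also took Acot4, Map3k6, Ocln and Ddc under the fold limit, at 0.30, 0.36, -0.36 and -0.33. Counting error limits genes with few reads.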
